A study of Mus musculus with 6 samples.

Results

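The 10 genes described here were Cdr1, C230004F18Rik, Mrgpra6, Grk4, Fut8, Gm17644, A630089N07Rik, Zfp65, Acad9 and Slc9a3, out of 24421 gene symbols in the count tables. They had been picked because their values seemed to run in the same order over replicates 1, 2 and 3 in wild type and in knockout mice. That order, and every difference between replicate numbers in these genes, therefore chose the genes and is given below as a description with no test. The libraries came from the cerebellum of mice aged 1 year, 3 wild type (WT) and 3 STIM1 knockout (KO), with no other allele or agent named in the labels. The Purkinje neuron layer and the molecular layer were microdissected together, and the labels call the 6 samples biological replicates. Neither the deleted exons of Stim1, nor the cells in which they are deleted, nor the number of animals per library is given. Dissected layers hold Purkinje cells with interneurons, glia and vessels, so in such bulk samples fewer cells of a type and less RNA per cell cannot be told apart. Of the 10 genes, 9 passed the filter on low counts, and C230004F18Rik, with at most 1 count in any library, did not.

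STIM1 is a calcium sensor of the endoplasmic reticulum that opens store-operated calcium channels in the plasma membrane, and Purkinje neurons are the output cells of the cerebellar cortex. The listed genes belong to no common pathway. Cdr1 is best known for its opposite strand, from which neurons make an abundant circular RNA with many target sites for the microRNA miR-7, and C230004F18Rik is the long noncoding RNA annotated on that strand. Mrgpra6 encodes a Mas-related receptor, a family known from sensory neurons, and Grk4 a kinase that phosphorylates active G protein-coupled receptors. Fut8 adds the core fucose of N-glycans, Acad9 is a mitochondrial acyl-CoA dehydrogenase needed to assemble respiratory complex I, and Slc9a3 is a sodium-proton exchanger known from gut and kidney epithelium. Zfp65 encodes a zinc finger protein and Gm17644 a long intergenic noncoding RNA.

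Depth and labels were read first. The libraries held 645994 to 764839 counts in genes, 1.16% to 1.23% of the uniquely aligned reads, and 5320 genes entered the tests. Stim1 had 7, 21 and 3 counts in WT replicates 1, 2 and 3 and 4, 3 and 2 counts in KO replicates 1, 2 and 3. Its mean was 16.2 ± 15.1 CPM in the WT libraries (the mean and SD of 3, CPM being the count scaled to a common library size, per 1000000 counts) and 4.43 ± 1.02 CPM in the KO libraries. By exact permutation, two-sided, p was 0.3, and 3 libraries against 3 cannot give less than 0.1. The genotypes overlapped, and so few counts check the labels poorly. Purkinje markers had counts in every library: Calb1 had 182 to 256, Car8 136 to 268 and Pcp2 47 to 71. Neither the strand setting of the kit nor that of the counting is given in the sources used here. For each gene named, markers included, reads from its own strand and from the strand opposite therefore cannot be told apart. Tsix, which lies opposite Xist, had 2987 to 3265 counts in replicates 1 and 2 of both genotypes, and Xist had 79 to 139. Whether counts were assigned to the strand opposite their source was not tested.

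The genes are scattered over the genome (build GRCm38, GENCODE annotation). Cdr1 lies at chrX:61184005-61185558 on the minus strand, as a single exon of 1554 bases, inside the span of C230004F18Rik at chrX:61116378-61292484 on the plus strand. Mrgpra6 lies at chr7:47185707-47204920 (minus), Grk4 at chr5:34660379-34755305 (plus), Fut8 at chr12:77238125-77476338 (plus) and Gm17644 at chr1:12667563-12673090 (plus). A630089N07Rik lies at chr16:98001310-98082450 (minus), Acad9 at chr3:36065979-36092853 (plus), Zfp65 at chr13:67705309-67729173 (minus) and Slc9a3 at chr13:74121457-74169442 (plus). Only Cdr1 and C230004F18Rik neighbour each other.

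The letters of 3 sets of sequences are shown, because they carry what the genes share with each other and what the counts at Cdr1 may hold. The first set is a stretch common to Fut8 and Gm17644. The first exon of the noncoding transcript Fut8-205 aligned to the first exon of Gm17644 over 290 bases at 97.9% identity, in the same orientation. Its first 120 bases are printed 5′ to 3′ at chr12:77410141-77410260 and chr1:12667597-12667716 (GRCm38, plus strand for both), with the 6 bases at which they differ in capitals.
Fut8-205: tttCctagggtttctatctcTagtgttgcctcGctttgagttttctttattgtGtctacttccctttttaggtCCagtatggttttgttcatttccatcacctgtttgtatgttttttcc
Gm17644: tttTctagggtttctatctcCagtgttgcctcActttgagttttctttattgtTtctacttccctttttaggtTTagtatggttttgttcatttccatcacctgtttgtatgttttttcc
The reads were 50 bases long, and 166 of the 241 windows of that length in the aligned stretch were identical in the 2 genes. A read from such a window fits both genes equally well.

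The second set concerns Cdr1. A plus-strand exon of C230004F18Rik at chrX:61183248-61186174 (2927 bases) covers the whole Cdr1 exon. This exon held 123 matches to the letters GTCTTCC, the complement of the miR-7 seed, of which 79 lay opposite the Cdr1 exon, while the Cdr1 strand itself held 0. Of 141767 annotated mouse transcripts 13.8% held a match, and the most in a transcript of any other gene was 11, in Ttn. The mature miR-7a and miR-7b share 1 seed, printed in capitals (bases 2 to 8, RefSeq, GRCm38.p6), followed by the first, a middle and the last match in the exon with the seed match in capitals.
mmu-miR-7a-5p: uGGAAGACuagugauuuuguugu
mmu-miR-7b-5p: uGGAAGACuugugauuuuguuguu
First, chrX:61183257-61183280: tggtgccagtaccaagGTCTTCCa
Middle, chrX:61184571-61184594: cttcccagaaatccaaGTCTTCCc
Last, chrX:61186082-61186105: cttccagcatctttatGTCTTCCa
The third set is the best match in the same exon to miR-671, a microRNA known to direct cleavage of the circular RNA. It lies at chrX:61186029-61186051, and 19 of the 23 microRNA bases can pair, with the pairing bases of the site in capitals.
mmu-miR-671-5p: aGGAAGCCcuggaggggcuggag
Site: tTCCAGCatCTCCAGGGCTTCCa
In the microRNA line the capitals mark the seed. A match is a description of the letters only. Mature microRNAs and circular RNAs were not measured.

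**Figure D1:**
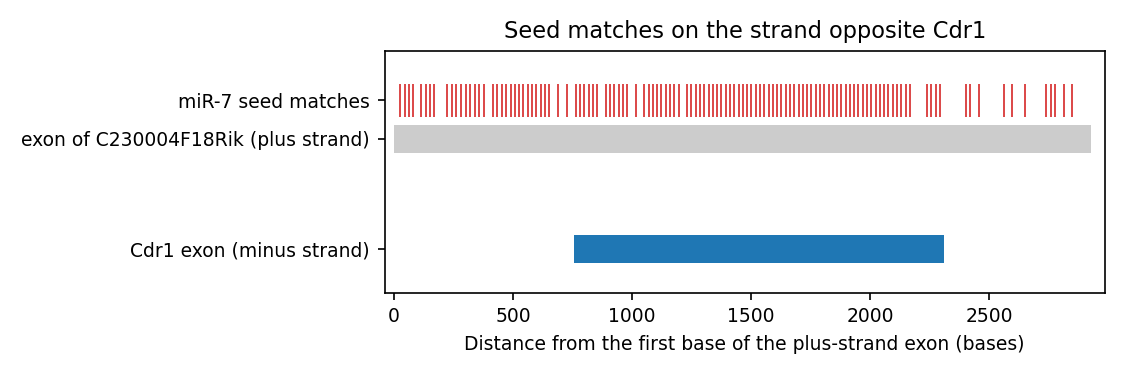
Positions of the 123 miR-7 seed matches (red lines) along the 2927-base plus-strand exon of C230004F18Rik (grey bar), in bases from its first base, with the Cdr1 exon on the minus strand (blue bar). The matches run along the whole exon, 79 of them opposite Cdr1.

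Cdr1 had 2067, 506 and 1302 counts in WT replicates 1, 2 and 3 and 1274, 530 and 1260 counts in KO replicates 1, 2 and 3. Scaled for library size these were 3240, 800.3 and 1918 CPM in WT and 1693, 826 and 2087 CPM in KO. Replicate 2 was the lowest library in both genotypes. The order was not the same, however: replicate 1 was highest in WT and replicate 3 in KO. Replicate 1 stood 4.05-fold above replicate 2 in WT (exact 95% interval 3.67 to 4.47) and 2.05-fold in KO (1.85 to 2.27), and these intervals, like all that follow, cover counting error only.

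For C230004F18Rik a single count was found in WT replicate 1 and a single one in KO replicate 2, with 0 elsewhere. The limit set by a count of 0 is 3 counts, which here corresponds to 3.99 to 4.97 CPM. No order over the replicates can be read from such values, so for this gene the choice rule does not hold. In the RefSeq models of the same assembly the gene, listed as Cdr1os, ends at base 61139460 of chromosome X and does not reach Cdr1, which there spans 61183246 to 61185558. Which gene models the authors counted is not given, and whether a read on the exon shown above could be assigned to C230004F18Rik was not tested.

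Mrgpra6 had the most counts of the 10 genes: 8458, 3032 and 4228 over the WT libraries and 7326, 2437 and 5071 over the KO libraries. It took 1.31%, 0.459% and 0.600% of all gene counts in the WT libraries and 0.958%, 0.354% and 0.769% in the KO libraries. Replicate 1 was highest, replicate 3 in between and replicate 2 lowest in both genotypes. The fold of replicate 1 over 2 was 2.77 in WT (2.65 to 2.88) and 2.56 in KO (2.45 to 2.68).

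Grk4 had 548, 196 and 314 counts over the WT libraries and 534, 186 and 353 over the KO libraries, with replicate 1 again 2.77-fold above replicate 2 in WT (2.35 to 3.28) and 2.45-fold in KO (2.07 to 2.91). Fut8 had 197, 69 and 106 counts over the WT libraries and 159, 65 and 120 over the KO libraries, with folds of 2.83 (2.14 to 3.78) and 2.09 (1.55 to 2.83). Both genes followed the order of Mrgpra6 in both genotypes. In KO their replicates 1 and 3 lay closer together than in WT: Fut8 stood at 211 and 199 CPM there, and at 309 and 156 CPM in WT.

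Of the noncoding and less studied genes, Gm17644 had 614, 227 and 271 counts over the WT libraries and 519, 160 and 387 over the KO libraries. A630089N07Rik, which GENCODE annotates as protein coding, had 1016, 435 and 612 counts over the WT libraries and 980, 373 and 749 over the KO libraries. Their folds of replicate 1 over 2 were 2.68 (2.30 to 3.14) and 2.32 (2.07 to 2.60) in WT and 2.77 (2.31 to 3.32) and 2.24 (1.99 to 2.53) in KO. Both had the order 1, 3, 2 from high to low in both genotypes. In WT the replicate 3 library of Gm17644 lay only 1.11-fold above replicate 2, and in KO 2.57-fold.

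Zfp65 had 242, 112 and 138 counts over the WT libraries and 253, 91 and 143 over the KO libraries, and Acad9 had 144, 64 and 105 counts over the WT libraries and 141, 68 and 88 over the KO libraries. Replicate 1 exceeded replicate 2 of Zfp65 2.14-fold in WT (1.70 to 2.70) and 2.37-fold in KO (1.86 to 3.05). For Acad9 the folds were 2.23 (1.65 to 3.04) and 1.77 (1.31 to 2.40). These 2 genes completed a group of 7 with the same order, 1 then 3 then 2, in both genotypes.

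Slc9a3 ran the opposite way. It had 100, 143 and 151 counts over the WT libraries and 84, 182 and 112 over the KO libraries. In CPM these were 157, 226 and 222 over the WT libraries and 112, 284 and 185 over the KO libraries. Replicate 1 was the lowest library in both genotypes and replicate 2 the highest, although in WT replicates 2 and 3 differed by less than counting error and their unscaled counts stood in the other order. Replicate 1 was at 0.693 times replicate 2 in WT (0.531 to 0.901) and at 0.393 times in KO (0.300 to 0.512).

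**Figure D2:**
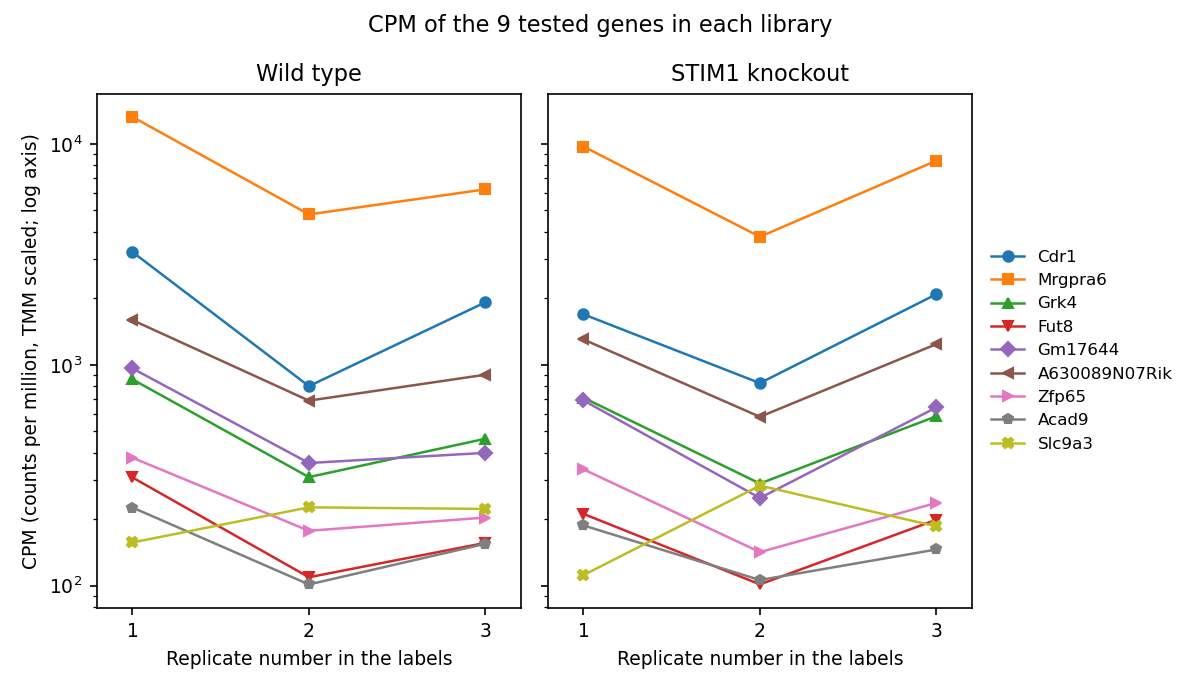
CPM (log axis) of the 9 tested genes against the replicate number of the labels, wild type on the left and STIM1 knockout on the right. Each point is 1 library. Replicate 2 is the lowest library for 8 genes in both panels, and Slc9a3 is highest there.

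The choice rule thus held in CPM for 8 of the 10 genes, 7 with the order 1, 3, 2 and Slc9a3 with the order 2, 3, 1. Among all 5320 tested genes 1066 (20%) had the same order of replicates in both genotypes, 225 (4.23%) had the order 1, 3, 2, and 715 (13.4%) had replicate 2 lowest in both. Since the genes were chosen for this order, nothing is read from these shares. Within the group of 7 the counts were also set in proportion to each other. Per 100 counts of Mrgpra6 in the same library there were 6.46 to 7.63 counts of Grk4, 6.41 to 7.63 of Gm17644 and 12.01 to 15.3 of A630089N07Rik. For Zfp65 the range was 2.82 to 3.73, for Fut8 2.17 to 2.67 and for Acad9 1.70 to 2.79. These are ratios of counts, not of levels per length. Log2 CPM values were taken as deviations from each gene's mean within its genotype. Over the 6 libraries these deviations of the 7 genes correlated at r = 0.893 to 0.995 in their 21 pairs. Cdr1 correlated with the 7 at 0.828 to 0.950 and Slc9a3 at -0.934 to -0.796. All these correlations share the same libraries and describe the choice.

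Variation between equal replicate numbers was then set beside variation between genotypes. For each gene, the distance between 2 libraries is the absolute difference of their log2 CPM values. Libraries of the same number and different genotype (3 pairs) were on average 0.14 apart for Acad9, 0.23 for Zfp65 and 0.24 for Grk4. Libraries of the same genotype and different number (6 pairs) were 0.65, 0.77 and 0.91 apart for these genes. For Fut8 the 2 distances were 0.33 and 0.84, for A630089N07Rik 0.33 and 0.79, and for Mrgpra6 0.40 and 0.94. Gm17644, at 0.56 and 0.96, and Slc9a3, at 0.35 and 0.61, had the smallest ratios of the 2 distances, 1.71 and 1.74. Cdr1 was 0.37 apart at equal number and 1.12 within a genotype. In all 9 genes WT and KO libraries of equal number were on average closer to each other than libraries of 1 genotype. The choice of the genes by replicate number favours this, so it is a description only. Over all tested genes the median distances were 0.33 and 0.34, and the distance within a genotype was the larger for 2669 genes (50.2%).

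**Figure D3:**
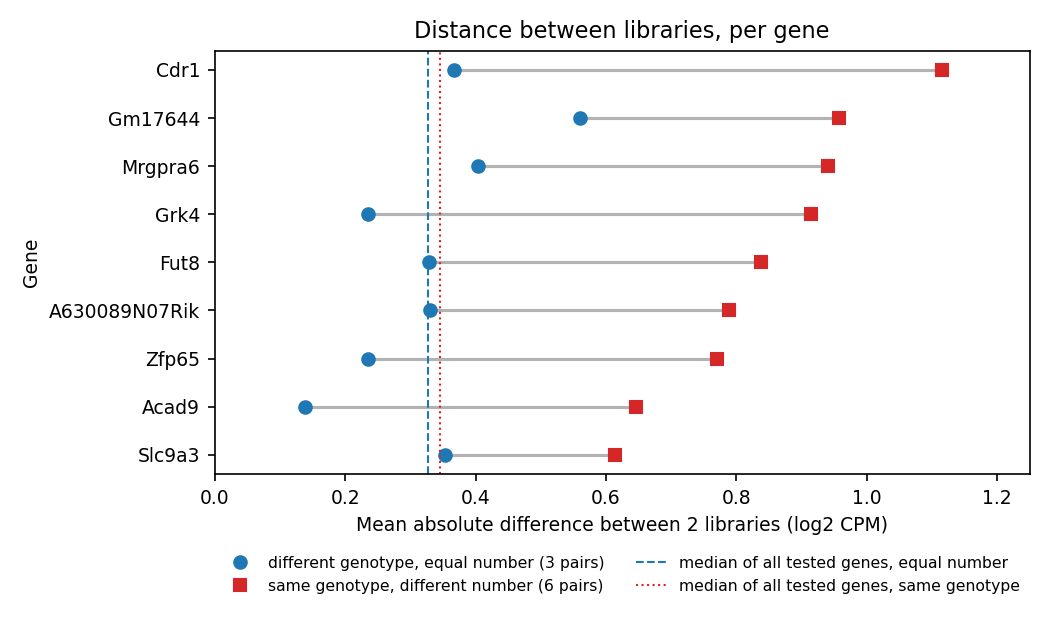
Mean absolute difference in log2 CPM between 2 libraries for each of the 9 tested genes. Circles are pairs of different genotype and equal replicate number, squares pairs of the same genotype and different number, and vertical lines the medians of all tested genes (0.33 and 0.34). Every square lies to the right of its circle.

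The same was seen, with the same limit, when the sum of squares of log2 CPM was divided. Replicate number took 95.8% in Acad9, 95.1% in Grk4 and 93.9% in Zfp65. It took 89.0% in A630089N07Rik, 88.9% in Mrgpra6 and 88.3% in Fut8, and 81.1% in Gm17644. In Cdr1 it took 85.8% and in Slc9a3 81.4%. Genotype took at most 3.13%, in Cdr1, and as little as 0.0102%, in Grk4. The medians over all tested genes were 41.5% for number, which has 1 more degree of freedom than genotype, and 12.4% for genotype.

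KO against WT is the difference that the choice of the genes did not use. Its test still depends on the choice, because its error comes from the spread within a genotype, which the choice favoured. A large spread makes a missed threshold and an overlap of the genotypes more likely, so both are given as descriptions. No member passed the test. The mean of Cdr1 was 1986 ± 1221 CPM over the 3 WT libraries (SD) and 1535 ± 645 CPM over the 3 KO libraries, a log2 fold change of -0.37 (SE 0.34) with an adjusted p of 0.987 in edgeR's quasi-likelihood test. For Mrgpra6 the means were 8095 ± 4530 CPM over WT and 7310 ± 3114 CPM over KO libraries, a log2 fold change of -0.15 (SE 0.31). The other values were -0.04 (SE 0.30) for Grk4, -0.16 (SE 0.30) for Fut8, -0.12 (SE 0.33) for Gm17644 and -0.03 (SE 0.27) for A630089N07Rik. They were -0.08 (SE 0.27) for Zfp65, -0.13 (SE 0.25) for Acad9 and -0.07 (SE 0.25) for Slc9a3. All these adjusted p were 0.997 in the same edgeR test, and 0 of the 9 genes were called where 0 of 5320 (0%) were called over all genes, 246 of them at an unadjusted p under 0.05. WT and KO libraries overlapped for every one of the 9, while the genotypes did not overlap for 571 tested genes (10.7%). All 9 log2 fold changes were below 0, as were those of 49.7% of tested genes, but the sign rested on single libraries: without WT replicate 1 Grk4 stood at 0.45, Mrgpra6 at 0.40 and Cdr1 at 0.17, and without KO replicate 2 Grk4 stood at 0.25. In the authors' deposited table from DESeq the fold of KO over WT was 0.791 for Cdr1 (p = 0.598), 0.923 for Mrgpra6 (p = 0.878) and 0.991 for Grk4 (p = 0.982). A p that misses the threshold does not show that WT and KO were alike. With standard errors of 0.25 to 0.34 on the log2 scale the differences between replicate numbers set the precision of these values in the fit by genotype alone. With replicate number as a block the standard errors ran from 0.13 for Grk4 to 0.19 for Gm17644. Cdr1 then stood at -0.27 (SE 0.16). The choice of the genes by replicate number favours these smaller errors.

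A fit of replicate number over all genes, with genotype beside it, places the members among the rest. It called 17 of 5320 genes (0.32%), of which 6 were members, and the contrast of replicate 2 with replicate 1 called 19 (0.357%), of which 7 were members: Cdr1, Mrgpra6, Grk4, Fut8, Gm17644, A630089N07Rik and Zfp65. This contrast chose the genes, so nothing is read from that overlap. Of the 19 genes 15 (0.282%) were lower and 4 (0.0752%) higher in replicate 2. Without WT replicate 2, or without KO replicate 2, edgeR's test called 0 genes, with 363 and 349 genes at an unadjusted p under 0.05. Without WT replicate 1, WT replicate 3 or KO replicate 3 it called more genes than with all 6 libraries, and without KO replicate 1 about as many. Each of these fits leaves 1 number with a single library, which is assumed to vary like the others, and 1 residual degree of freedom, so the counts show how unstable the calls are and not which library carries them.

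The called genes outside the list that were lower in replicate 2 included Kcnq1ot1, a long noncoding RNA of an imprinted cluster, and Ube3a, an imprinted ubiquitin ligase gene. Kcnq1ot1 had 2281, 941 and 1371 counts over the WT libraries and 2073, 845 and 1482 over the KO libraries, an edgeR log2 fold change of replicate 2 over 1 of -1.17 (adjusted p 0.00225). It had the order 1, 3, 2 of the 7 members in both genotypes. The 4 genes higher in replicate 2 were Ddx49, an RNA helicase gene, Chtf18, Nkx6-2, a homeobox gene of oligodendrocytes, and Pet100, a cytochrome oxidase assembly gene. Pet100 had 17706, 22570 and 22224 counts over the WT libraries and 16179, 24449 and 19144 over the KO libraries, lowest in replicate 1 as Slc9a3 was. The genes with the lowest p for replicate number outside the sex-linked list were E030024N20Rik, Mrgpra6, Grk4, Kcnq1ot1 and Chtf18. E030024N20Rik differed in another way, with 84, 90 and 5 counts over the WT libraries and 34, 79 and 6 over the KO libraries, low in replicate 3.

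**Figure D4:**
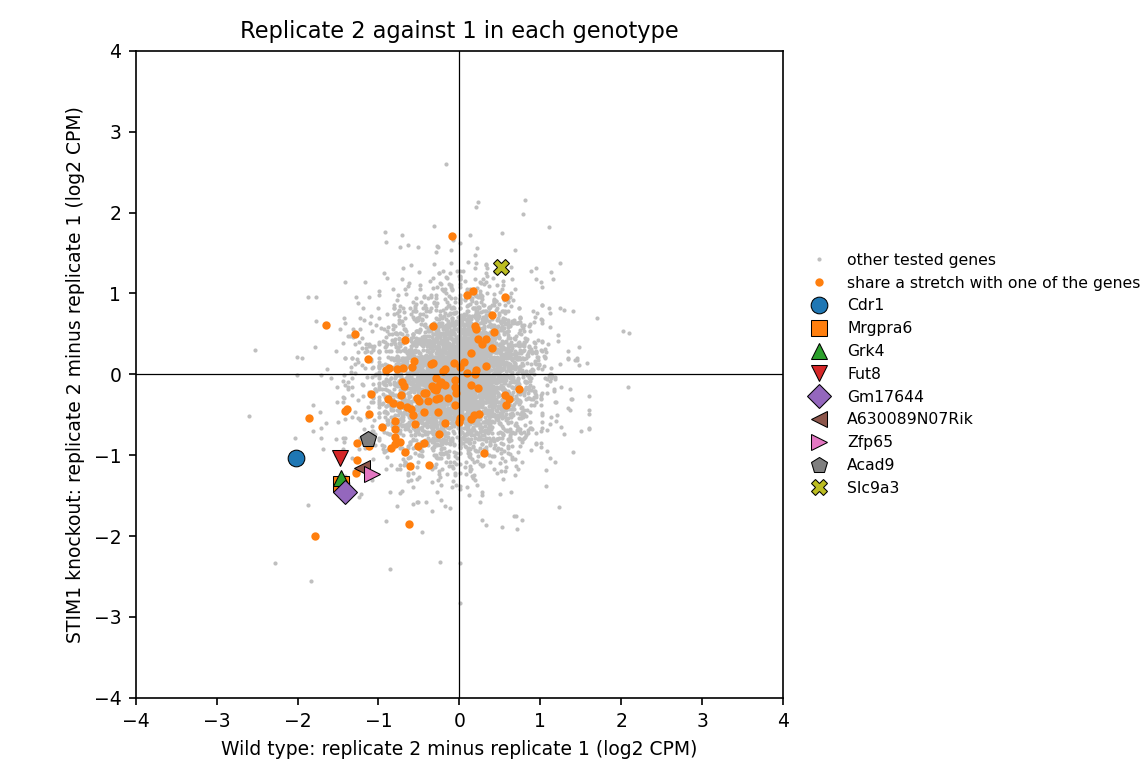
Difference in log2 CPM between replicates 2 and 1 in wild type (x axis) and in STIM1 knockout (y axis) for all 5320 tested genes. Large symbols are the 9 tested members and orange dots genes that share a sequence stretch with a member. Of the members, 8 lie below 0 on both axes and Slc9a3 above 0 on both.

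For each member the tested gene outside the list was found whose log2 CPM deviations from the genotype means correlated best over the 6 libraries. For Grk4 it was 4930504C09Rik (r = 1.00), with 83, 21 and 40 counts over the WT libraries and 80, 21 and 49 over the KO libraries. For Acad9 it was 4930533N22Rik (r = 0.999), with 167, 68 and 112 counts over the WT libraries and 169, 79 and 103 over the KO libraries. A630089N07Rik was most like Vmn1r58, which is named as a vomeronasal receptor gene (r = 0.999), with 369, 210 and 263 counts over the WT libraries and 372, 185 and 296 over the KO libraries. The other matches were Fbxo17 for Mrgpra6 (r = 0.998), Apopt1 for Fut8 (0.998), Adtrp for Gm17644 (0.996), Cfap74 for Zfp65 (0.999), Gm2518 for Slc9a3 (1.00) and Kit, a marker of molecular layer interneurons, for Cdr1 (0.991). Kit varied far less than Cdr1, from 20 to 30 counts per library. Correlations over 6 libraries that were picked as the highest over all tested genes carry no test.

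Genes next to the members had few counts. Htt and Nop14, which flank Grk4, had 7 to 22 and 1 to 12 counts per library. Gphn, the nearest right neighbour of Fut8, had 21, 26 and 26 counts over the WT libraries and 21, 23 and 32 over the KO libraries, and Sulf1, beside Gm17644, had 16, 12 and 13 over the WT libraries and 7, 10 and 14 over the KO libraries. Mrgpra9, the Mas-related receptor gene next to Mrgpra6, had 0 counts in every library. Exoc3, which lies 45 bases from Slc9a3 on the other strand, had 31, 44 and 37 counts over the WT libraries and 33, 49 and 27 over the KO libraries, highest in replicate 2 in both genotypes, as Slc9a3 was. Of the 9 tested members Cdr1, Fut8 and Acad9 share exon with another annotated gene. For Fut8 this is 75 bases with 9530018F02Rik on the opposite strand, and for Acad9 559 bases with Gm43079 on the same strand. These 2 partners were not analysed here.

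Several members share sequence with each other beyond the stretch printed above. Zfp65 and Acad9 shared 599 aligned bases at 90.8% identity, in opposite orientation, and Grk4 and Zfp65 613 bases at 84.5%, in the same orientation. Grk4 also shared 444 bases with Acad9 (86.9%) and 505 bases with A630089N07Rik (85.5%), and A630089N07Rik shared 508 bases with Gm17644 (87.6%, opposite orientation). Fut8, Gm17644, A630089N07Rik, Grk4, Zfp65 and Acad9 are thus linked to each other by such stretches. Mrgpra6, Cdr1 and Slc9a3 shared none of at least 200 bases with them. The 6 linked genes all have the order 1, 3, 2, which Mrgpra6 has without such a stretch.

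Stretches of the members, not only those that link members to each other, occur in many other genes, which were not chosen by their values. Taking alignments of at least 200 bases at 80% identity or more, 1144 other annotated genes shared a stretch with a member, and 105 of them were tested. By member, 75 tested genes shared a stretch with Acad9, 66 with Zfp65, 60 with Grk4 and 24 with A630089N07Rik. Another 13 did so with C230004F18Rik, 7 with Gm17644 and 4 with Fut8, and a gene can count for several members. For the 105 genes the median log2 fold change of replicate 2 over 1 was -0.30, against -0.02 for the 5016 tested genes without such a stretch. Replicate 2 lay below replicate 1 in both genotypes for 59 of the 105 (56.2%) and for 1371 of the 5016 (27.3%). The order 1, 3, 2 was found in both genotypes for 21 of the 105 (20%) and 186 of the 5016 (3.71%). Of the 105, 4 were called lower in replicate 2 (3.81%), and 4 of the 5016 (0.0797%). With a limit of 100 bases, chosen after seeing the data, 1207 genes shared a stretch and the values were closer to those of other genes: the median was -0.09, replicate 2 was lower in both genotypes for 34.2%, the order 1, 3, 2 was found for 5.55%, and 0.497% were called lower. At the limit of 200 bases, the 4 called genes that shared a stretch were Kcnq1ot1, A130077B15Rik, 4930470H14Rik and 4930533N22Rik. A130077B15Rik had 756, 347 and 522 counts over the WT libraries and 726, 346 and 527 over the KO libraries, and 4930470H14Rik had 709, 324 and 406 over the WT libraries and 651, 299 and 503 over the KO libraries. For KO over WT the median log2 fold change of the 105 genes was -0.03. The stretches were looked for after the members' values were known, and their part in the variation was not tested. Alignments that were not unique were left uncounted by the authors, so reads that aligned to several copies equally well are not in these counts.

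**Figure D5:**
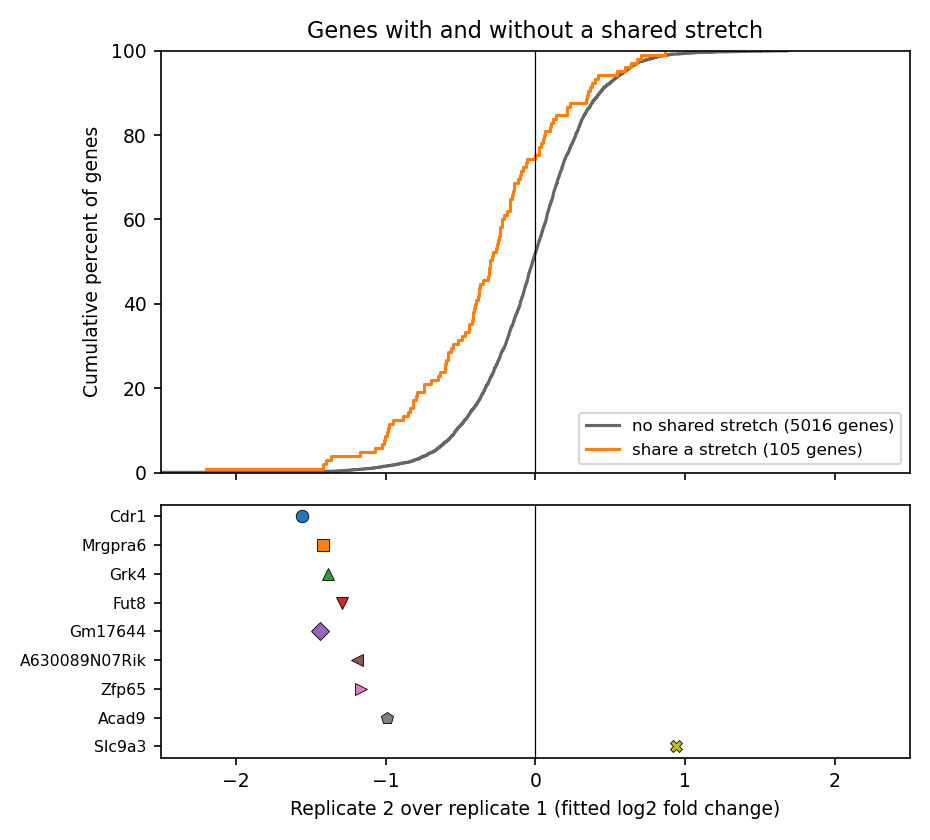
Upper panel: cumulative percent of tested genes against the fitted log2 fold change of replicate 2 over replicate 1, for the 105 genes that share a stretch with a member (orange, median -0.30) and the 5016 that do not (grey, median -0.02). Lower panel: the same quantity for the 9 tested members, 8 of them from -1.56 to -0.99 and Slc9a3 at 0.94.

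The families of the members were counted from lists made by function, and in 5 of the 7 lists the member was the 1 gene called. Among GPCR kinases and arrestins 4 of 8 genes in the files were tested, and Grk4 was the 1 called for replicate 2 against 1 (lower), with 0 called for KO against WT. Of 20 Mas-related receptor genes 14 had no count in any library and 3 were tested, with Mrgpra6 the 1 called. Of 22 genes of fucosylation and N-glycan branching 6 were tested, with Fut8 the 1 called, while Mgat3, which adds the bisecting residue, had 32, 32 and 27 counts over the WT libraries and 33, 21 and 17 over the KO libraries. Of 20 KRAB zinc finger genes and their corepressor Trim28, 4 were tested, with Zfp65 the 1 called. In the Cdr1 and miR-7 network 6 of 17 genes were tested, and Cdr1 was the 1 called. The lists of acyl-CoA dehydrogenases and complex I assembly (5 of 25 tested) and of sodium-proton exchangers (2 of 14 tested) had 0 called in either direction. Across these 7 lists 0 genes were called for KO against WT. Since the members sit in these lists by construction, the calls add nothing to the choice.

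Other features of the libraries moved with the replicate number as well. Counts of Y-linked genes were found only in replicate 3 of each genotype, with 13 and 6 counts of Ddx3y in WT and KO. There Tsix had 2 and 1 counts, and between 2987 and 3265 counts in the other 4 libraries. Xist had 10 and 4 counts in replicate 3 of WT and KO, and 79 to 139 in the libraries of replicates 1 and 2. By these genes replicate 3 stood apart in both genotypes, as a male library would from female ones. In the contrast of replicate 3 with 1 and 2, which called 5 genes (0.094%), 0 members were called, with log2 fold changes of -0.12 for Zfp65 to 0.52 for Cdr1. The members that followed the choice rule have replicate 3 between replicates 1 and 2. That order keeps this contrast small, so nothing is read from the lack of calls. In the 4 libraries of replicates 1 and 2 the Y-linked genes had 0 counts. The summed CPM of 11 Purkinje cell markers was 3292, 3608 and 2960 over the WT libraries and 2219, 2888 and 2589 over the KO libraries, highest in replicate 2 in both, and 0 of 10 tested markers were called. Of the 10, 5 were higher and 2 lower in replicate 2 than in replicate 1 in both genotypes. Itpr1, the largest term of that sum, stood at 1908, 2013 and 1516 CPM in the WT and 1181, 1381 and 1361 CPM in the KO libraries. Car8, a Purkinje cell marker, had 215, 254 and 205 counts over the WT libraries and 141, 268 and 136 over the KO libraries, highest in replicate 2 of both genotypes. Pcp2, another such marker, was at 94.1 and 93.3 CPM in replicates 1 and 2 of WT and at 94.3 and 93.5 CPM in those of KO. The summed CPM of 11 granule cell markers was 491, 522 and 576 over the WT libraries and 598, 507 and 568 over the KO libraries, and that of 6 Bergmann glia markers 669, 599 and 511 over the WT libraries and 525, 399 and 543 over the KO libraries. Over the 14 cell type lists 0 genes were called by replicate number or by genotype. The share of uniquely aligned reads in genes was 1.23%, 1.18% and 1.21% in WT and 1.22%, 1.19% and 1.16% in KO, highest in replicate 1 of both. Circadian clock genes, of which 7 were tested, and immediate early genes, of which 3 were, had 0 called. The part of any of these in the members' variation was not tested.

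Promoters (250 bases before to 50 after a RefSeq start, GRCm38.p6) were at hand for 10 starts of 7 members. The letters CCAAT, searched on both strands, were found in 3 of them, at 1 start each of Fut8, Zfp65 and A630089N07Rik, and in 37.4% of all 32851 promoters. GGGCGG was found in 4, at Grk4, 2 starts of Fut8 and Slc9a3, against 35.7% of all. CACGTG was found in 1, at Slc9a3, against 7.15%, and TATAAA and TGACGTCA in 0, against 13.6% and 1.79%. No motif was thus found at the starts of all 7 members.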

How the data were processed

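RNA from 6 libraries was analysed from the authors' deposited tables of read counts per gene (whole numbers), made with TopHat and HTSeq 0.9.1 on GRCm38 (mm10), per the submitters' processing notes. The deposited comparison table gives the authors' fold ratio and p-value from DESeq and a log2 fold change from edgeR, and is quoted only where named. The counting's strand setting and gene models were not given in the sources used. The 5 rows that name no gene were left out, and 98.8% of uniquely aligned reads fell in no gene.

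Genes were filtered with filterByExpr (minimum count 10, by genotype) and tested with edgeR 4.0.16, glmQLFit and glmQLFTest on TMM-scaled counts, with Benjamini-Hochberg adjustment over all tested genes and a threshold of 0.05. All 6 libraries entered each fit, by genotype alone for KO against WT and by genotype and number for the contrasts of replicate numbers. The fits were tested on simulated data. Log2 CPM used a prior count of 2. Distances and sums of squares were computed from it. Stretches were found with blastn 2.17.0 (word size 11, e-value limit 1e-10) between GENCODE M21 transcripts, which matched 23384 of 24421 symbols (95.8%). Alternatives were RLE and upper quartile scaling, other filters, DESeq2 1.42.0, limma-voom (limma 3.58.1), a replicate block and leaving out each library.

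The members and lists were chosen with earlier results of these data known. Besides the members, the genes named are those that share exon or lie next to them, the most similar gene of each, the 5 with the lowest p for replicate number outside the sex-linked list, that list, and per function list the called genes. The called genes that share a stretch, Ube3a, Ddx49, Nkx6-2, Pet100 and the Purkinje markers were chosen after their values were seen. P-values measure the spread between these samples.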

Additional observations from a re-analysis of the deposited data

Results flagged for a closer look

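Most of the sequenced reads lay outside the gene counts used above. On average over the 6 libraries 98.8% of uniquely aligned reads were assigned to no gene, and this value was flagged because these reads enter no comparison. A further 22.8 per 100 alignments were not unique and were left uncounted by the authors. These per-library values were 24.5, 23.1 and 22.4 in WT replicates 1, 2 and 3 and 21.4, 21.1 and 24.4 in KO, not in the order of the members. Ambiguous reads, which fit more than 1 gene, made up 0.00459% of uniquely aligned reads, from 2373 to 2831 per library. The files give only totals for these classes.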

How the results depend on the processing

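The count of genes called for KO against WT was 6 with no filter and ranged from 0 to 1 when each library was left out. With no filter 82 genes were called for replicate number, 25 for replicate 3 against 1 and 2, and 60 for replicate 2 against 1. With a mean count of 50 or more these counts were 3, 2 and 8. Leaving out each library gave ranges of 2 to 83, 2 to 22 and 0 to 75, the 0 without WT replicate 2 and without KO replicate 2. Without the sex-linked list, chosen after seeing the data, replicate 3 against 1 and 2 called 2. The cause was not tested, except that fewer or more genes were tested under other filters. Other scalings, DESeq2, limma-voom and library sizes without the members (also chosen after seeing the data) stayed within 1.5 times of each main count. The log2 fold changes of KO over WT changed sign only when a library was left out, and ranged from -0.74 to 0.17 for Cdr1, -0.41 to 0.40 for Mrgpra6, -0.32 to 0.45 for Grk4, -0.44 to 0.36 for Fut8 and -0.37 to 0.47 for Gm17644. They ranged from -0.26 to 0.38 for A630089N07Rik, -0.42 to 0.33 for Zfp65, -0.37 to 0.19 for Acad9 and -0.46 to 0.22 for Slc9a3, and over all settings no member had an adjusted p under 0.904. For genes that share a stretch with a member, the median log2 fold change of replicate 2 over 1 was -0.09 at 100 bases or more (1207 genes), -0.31 at 300 (81 genes) and -0.25 at 70% identity (144 genes), limits chosen after seeing the data.

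Same-numbered libraries deviated together with correlations across tested genes of 0.143, 0.0795 and 0.122 (replicates 1, 2 and 3), 0.389, 0.289 and 0.409 at a mean count of 50 or more, and 0.119, 0.0560 and 0.0266 without the sex-linked list. Each library correlated best with the one of its own number, a hint from the data only. Since 1 value is under 0.1 and the labels give no shared litter or day, the numbers were not taken as pairs. With the replicate block edgeR called 0 genes for KO against WT (287 at an unadjusted p under 0.05), and the members' adjusted p ranged from 0.906 to 0.994.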
